A study of Mus musculus with 18 samples.

Results

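The genes described here encode MS4A proteins and their relatives TMEM176A and TMEM176B, small proteins whose chains cross the membrane several times. They were chosen by symbol: Tmem176a, Tmem176b, Ms4a1, Ms4a4b, Ms4a4c, Ms4a6b, Ms4a6c, Ms4a6d and Ms4a7 were all found among the 19938 genes measured, each by 1 probeset, so 9 of 9 members carry values. The values come from 18 Affymetrix Mouse Gene ST arrays hybridised with RNA of XCR1+ dendritic cells (DCs) that were sorted out of thymus from untreated B6 mice, and 3 arrays make up each of 6 groups. XCR1+ DCs, the DC type specialised in cross-presenting antigen to CD8 T cells, were sorted as CD11b- CD11c+ MHCII+ CD172a- XCR1+ CD8a+ cells and divided into immature cells (CD117+, CCR7-) and homeostatically matured cells (CD117-, CCR7+). Both stages came from specific pathogen-free wild-type mice (CTRL), from mice labelled Ifnar1-KO, after the gene of a type I interferon receptor chain, in the same housing, and from germ-free wild-type mice (GF). The question was how these genes change between the stages and whether that change differs in the mice labelled Ifnar1-KO or without a microbiota. Nothing in the labels shows that arrays of the same group are from different animals, so each p-value measures the spread between arrays, which could be technical.

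MS4A proteins sit in the plasma membrane, where several act as partners of immune receptors. MS4A1 is the B cell antigen CD20 and MS4A2 is the beta chain of the high-affinity IgE receptor, and other members mark macrophages, T cells or further myeloid cells. TMEM176A and TMEM176B lie mainly in endosomal membranes of myeloid cells; TMEM176B is a cation channel that is known from immature DCs and from transplant tolerance, and that restrains the NLRP3 inflammasome. The mouse Ms4a genes lie in a single cluster on chromosome 19, and the Tmem176 genes form a head-to-head pair on chromosome 6.

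The knocked-out gene did not separate all arrays labelled Ifnar1-KO from CTRL. The log2 intensity of Ifnar1 on the CCR7- arrays was 8.09, 8.06 and 8.09 in CTRL, 8.07, 7.27 and 7.66 in Ifnar1-KO, and 7.94, 8.16 and 7.91 in GF. On the CCR7+ arrays it was 7.61, 7.82 and 7.72 in CTRL, 7.61, 6.07 and 6.96 in Ifnar1-KO, and 7.50, 7.61 and 7.74 in GF. Both replicate 1 arrays labelled Ifnar1-KO thus lay among the CTRL values, while replicates 2 and 3 lay below them in each stage. The Ifnar1-KO minus CTRL difference was -0.41 ± 0.28 (SE) in CCR7- and -0.83 ± 0.28 in CCR7+ cells and did not pass (limma adjusted p = 0.687 and 1). The sources used here do not say if this probeset covers what was deleted; where it does not, these values are no check of the labels. The name Ifnar1-KO below therefore stands for the arrays labelled so, and every difference drawn from them rests on that label. Without both replicate 1 arrays labelled Ifnar1-KO, the same number of members, 6 of 9, was called during Ifnar1-KO maturation. Between Ifnar1-KO and CTRL 0 of 9 were called in either stage. With all arrays, 9.42% of all genes were called as risen and 10.8% as fallen during Ifnar1-KO maturation. The members were picked with such results known, so these counts are no check of the label.

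Stage separated all 18 arrays along a first principal component that held 86.9% of the variance of 2000 of the 19938 genes. This share, like that of the second component below, holds for these 2000 genes only. The labelled cell type was checked against 12 XCR1+ DC identity genes and 11 mature DC genes: the identity list had a mean log2 intensity of 10.07 to 10.33 on the CCR7- arrays and 7.34 to 8.53 on the CCR7+ arrays, and all 11 mature DC genes rose in each background. Xcr1 itself, the receptor used in the sort, had a log2 intensity of 11.28 to 11.56 on the CCR7- arrays and 4.89 to 8.36 on the CCR7+ arrays, so its mRNA signal was lower in the matured cells; in CTRL 8 of the 12 identity genes fell and 1, Batf3, rose. On a second component (4.2% of the variance) both Ifnar1-KO replicate 2 arrays and both arrays each of GF replicates 2 and 3 lay apart from the other 12. Thymocyte and T cell markers (17 genes) had a mean of 4.44 to 5.12 on the CCR7- arrays and 5.13 to 7.59 on the CCR7+ arrays, the highest on Ifnar1-KO CCR7+ replicate 2. Backgrounds also differed in the sex-linked genes: Xist was lower in GF than in CTRL (log2 difference -5.16 in CCR7- and -4.67 in CCR7+ cells, limma adjusted p = 0.00372 and 0.0122), and the Y-linked Eif2s3y was higher in GF in both stages (4.58 and 5.02) and in Ifnar1-KO CCR7+ cells (3.88, adjusted p = 0.00106), so sex and background cannot be told apart. The letters in the array codes of CTRL replicate 2 are swapped between the stages; stages were assigned by the stated cell type, and the members' values on these arrays lay with the other arrays of the stated stage.

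The upstream sequences of 7 of the 9 members were found in RefSeq (GRCm38.p6). The stretch between the closest listed starts of the Tmem176 pair is shown because both genes rose together; it is 108 bases long, 63.9% G or C, and is read on the plus strand from the Tmem176b start towards Tmem176a (chr6:48841375-48841482). The 250 bases before the start of Ms4a6b (plus strand, chr19:11518309-11518558), Ms4a6c (plus strand, chr19:11469118-11469367), Ms4a4b (plus strand, chr19:11443308-11443557) and Ms4a4c (plus strand, chr19:11407411-11407660) are shown because they form 2 pairs of close copies: Ms4a6b and Ms4a6c fell together during maturation, while of Ms4a4b and Ms4a4c only Ms4a4c passed the test. Capitals mark a match to GAAANNGAA, the form of an interferon regulatory factor (IRF) repeat.
Tmem176b to Tmem176a: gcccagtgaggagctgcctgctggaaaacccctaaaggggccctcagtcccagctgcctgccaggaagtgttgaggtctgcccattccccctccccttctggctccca
Ms4a6b: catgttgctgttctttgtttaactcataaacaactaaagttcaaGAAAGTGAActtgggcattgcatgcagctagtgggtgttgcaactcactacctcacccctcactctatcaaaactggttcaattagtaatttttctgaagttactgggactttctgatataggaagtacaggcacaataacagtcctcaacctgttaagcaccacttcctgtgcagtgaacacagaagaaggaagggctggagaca
Ms4a6c: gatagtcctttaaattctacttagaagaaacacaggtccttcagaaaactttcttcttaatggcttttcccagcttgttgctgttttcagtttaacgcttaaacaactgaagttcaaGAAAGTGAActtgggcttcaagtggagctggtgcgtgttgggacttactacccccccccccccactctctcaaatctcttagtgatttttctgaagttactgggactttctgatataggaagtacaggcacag
Ms4a4b: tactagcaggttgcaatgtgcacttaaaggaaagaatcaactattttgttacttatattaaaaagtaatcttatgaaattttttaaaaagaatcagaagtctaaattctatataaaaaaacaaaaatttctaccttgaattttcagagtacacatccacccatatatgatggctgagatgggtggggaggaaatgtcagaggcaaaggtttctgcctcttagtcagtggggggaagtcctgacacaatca
Ms4a4c: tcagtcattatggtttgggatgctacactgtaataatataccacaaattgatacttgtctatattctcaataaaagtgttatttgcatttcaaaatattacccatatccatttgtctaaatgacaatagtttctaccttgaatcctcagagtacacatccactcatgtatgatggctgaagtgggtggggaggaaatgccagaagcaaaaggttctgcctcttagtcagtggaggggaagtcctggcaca

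A local alignment of Ms4a6b with Ms4a6c covered 182 columns, of which 152 (83.5%) were identical, and that of Ms4a4b with Ms4a4c covered 128 columns, of which 114 (89.1%) were identical. GAAANNGAA was searched on both strands of the 250 upstream bases and was found in 7.16% of 27025 promoters. It lay 206 to 198 bases before the Ms4a6b start and 133 to 125 bases before the Ms4a6c start, and all 9 of its letters fell in the same columns of the alignment. A further match lay on the other strand 71 to 63 bases before the start of Ms4a7. Tmem176a, Tmem176b, Ms4a4b and Ms4a4c held no match in this window. No member promoter held GAGGAAGT (a PU.1-type ETS form, in 2.42% of promoters), TGANTCA (AP-1, in 6.85%) or AGGTCA (a nuclear receptor half-site, in 13.8%). These matches describe letters only; no binding was measured.

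Maturation, compared as CCR7+ minus CCR7- cells, moved the members in opposite directions. In CTRL cells 2 members rose (Tmem176a, Tmem176b) and 4 fell (Ms4a6c, Ms4a6b, Ms4a4c, Ms4a6d), where limma called 12.6% of all genes as risen and 13.6% as fallen (adjusted p under 0.05 over all genes). In Ifnar1-KO cells the counts were again 2 and 4 of 9, against 9.42% and 10.8% of all genes. In GF cells 2 rose and 3 fell, against 9.53% and 11.8%. Ms4a1, Ms4a4b and Ms4a7 passed in no background. The median log2 change over the 9 members was -0.17 in CTRL, -0.13 in Ifnar1-KO and -0.30 in GF cells, and over all genes 0.07, 0.00 and 0.03. The members were picked with such results known, so these counts describe them and give no independent support. In sorted bulk samples, fewer cells with a transcript and less of it per cell cannot be told apart.

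**Figure D1:**
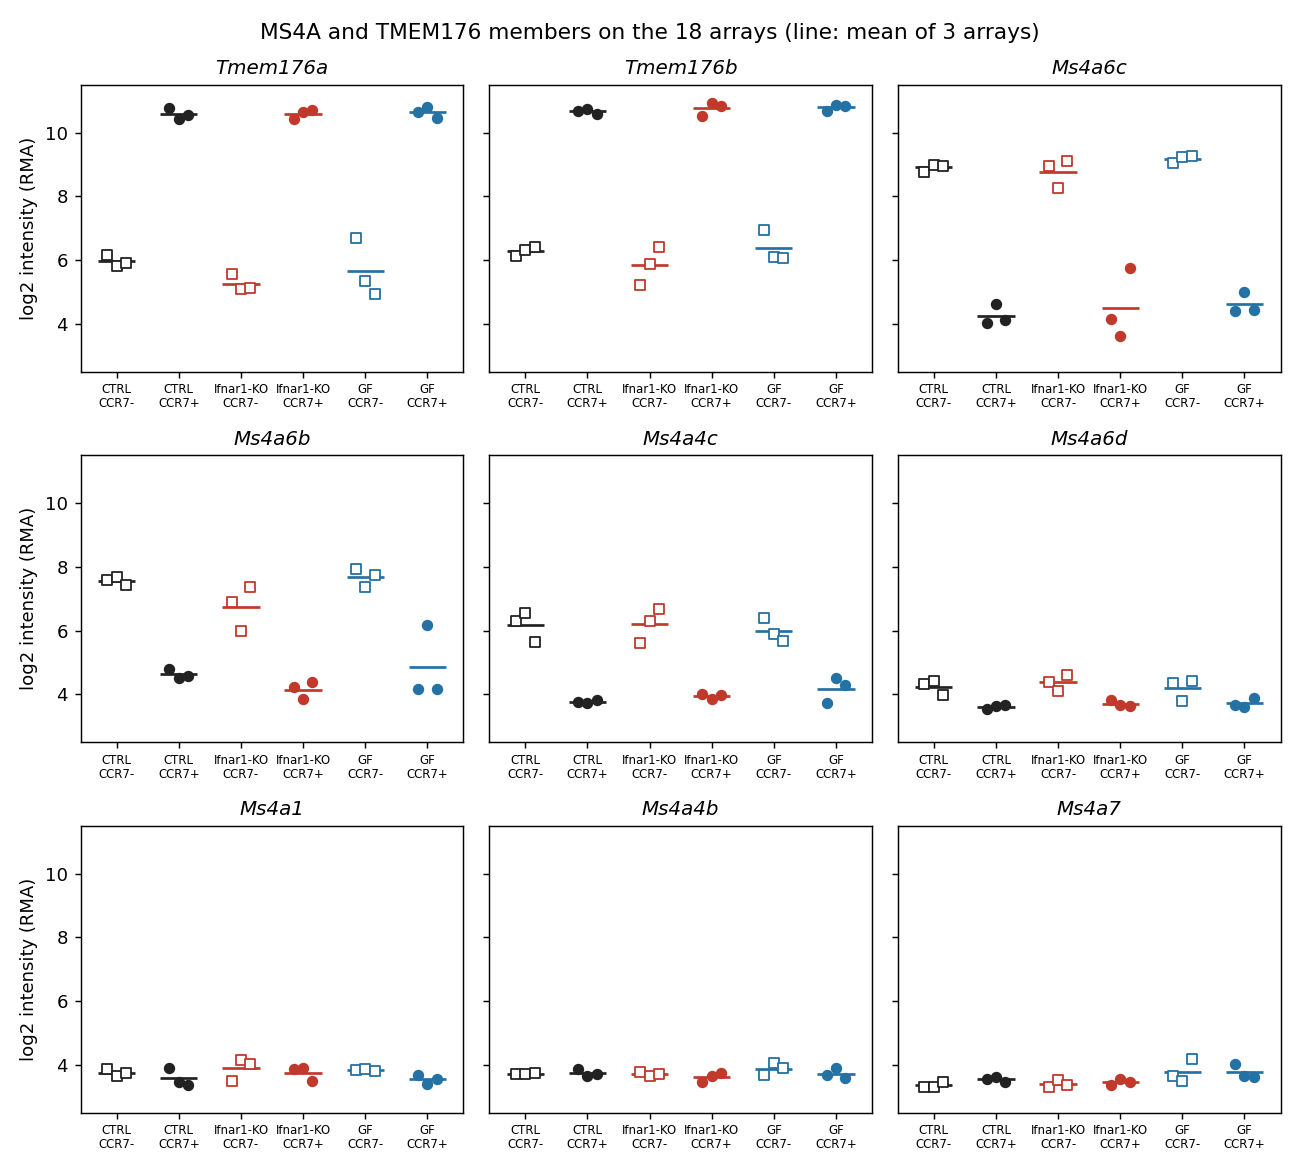
Log2 RMA intensity (y axis) of the 9 members on every array, by background and stage (x axis; open squares CCR7-, filled circles CCR7+, line the mean of 3 arrays). Tmem176a and Tmem176b are above 10 on all CCR7+ arrays and below 7 on all CCR7- arrays, Ms4a6c runs the opposite way, and the bottom row stays near 4 or below throughout.

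Tmem176a, whose product shares endosomal membranes with TMEM176B, went from low to high signal. On the CCR7- arrays its log2 intensity was 6.16, 5.82 and 5.92 in CTRL, 5.57, 5.10 and 5.11 in Ifnar1-KO, and 6.69, 5.35 and 4.95 in GF. On the CCR7+ arrays it was 10.78, 10.44 and 10.55 in CTRL, 10.43, 10.66 and 10.71 in Ifnar1-KO, and 10.66, 10.81 and 10.46 in GF. Every CCR7+ array was above every CCR7- array, with a gap of 3.73 between the nearest pair. The log2 change was 4.62 ± 0.31 (SE, n = 3 arrays per group) in CTRL, a 24.6-fold rise (limma adjusted p = 5.67e-08), 5.34 ± 0.31 in Ifnar1-KO (40.6-fold, adjusted p = 1.26e-08) and 4.98 ± 0.31 in GF (31.5-fold, adjusted p = 3.08e-08). The CTRL rise ranked 14 of 19938 genes by size.

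Tmem176b, the better studied channel gene of the pair, followed the same course. Its CCR7- values were 6.14, 6.33 and 6.41 in CTRL, 5.22, 5.88 and 6.40 in Ifnar1-KO, and 6.94, 6.10 and 6.06 in GF. Its CCR7+ values were 10.68, 10.76 and 10.58 in CTRL, 10.53, 10.94 and 10.83 in Ifnar1-KO, and 10.69, 10.88 and 10.84 in GF. The stages did not overlap, and the gap was 3.60. The log2 change was 4.38 ± 0.25 in CTRL (20.9-fold, limma adjusted p = 1.31e-08), 4.94 ± 0.25 in Ifnar1-KO (30.7-fold, adjusted p = 3.69e-09) and 4.44 ± 0.25 in GF (21.7-fold, adjusted p = 1.16e-08). Of all genes, 7% had 9 CCR7+ arrays that all lay above the 9 CCR7- arrays, as both Tmem176 genes did.

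The spread of the pair differed between groups. Within CTRL the SDs of Tmem176a were close in the stages, at 0.18 in CCR7- and 0.17 in CCR7+ cells (n = 3 each), and those of Tmem176b were 0.14 and 0.09. In GF they were 0.91 and 0.18 for Tmem176a and 0.49 and 0.10 for Tmem176b, and in Ifnar1-KO 0.27 and 0.15, and 0.59 and 0.21. The SDs were not compared by a test. The highest CCR7- value of both genes was on GF replicate 1, where Ccr7, the receptor that guides DCs to T cell areas, was also at its highest CCR7- value of 9.09 and the mature DC list at 8.51. Fscn1, the actin-bundling fascin of mature DCs, was 8.14 to 8.65 on the CTRL arrays, GF replicate 1 and Ifnar1-KO replicate 2 of the CCR7- stage, and 6.41 to 6.93 on the other 4. Tmem176a was 5.82 to 6.69 on that first set except for Ifnar1-KO replicate 2 (5.10), and 4.95 to 5.57 on the other 4; Tmem176b did not divide in this way, with 6.40 on Ifnar1-KO replicate 3. Without the 6 arrays that stood apart, a single GF pair remains, and the GF change was 3.96 for Tmem176a (limma adjusted p = 2.06e-05) and 3.76 for Tmem176b (adjusted p = 0.000348), with the lone arrays assumed to vary like the others. On Ifnar1-KO CCR7+ replicate 2, where the T cell gene Cd3d reached 10.25, Tmem176a (10.66) and Tmem176b (10.94) stood beside 10.43 to 10.81 and 10.53 to 10.88 on the other CCR7+ arrays.

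Ms4a6c, a member of the Ms4a6 group, showed the largest fall among the members. Its CCR7- values were 8.77, 8.99 and 8.97 in CTRL, 8.96, 8.25 and 9.10 in Ifnar1-KO, and 9.04, 9.25 and 9.26 in GF. Its CCR7+ values were 4.02, 4.61 and 4.12 in CTRL, 4.14, 3.63 and 5.75 in Ifnar1-KO, and 4.40, 4.99 and 4.45 in GF. All CCR7+ arrays were below all CCR7- arrays with a gap of 2.50, and Ifnar1-KO replicate 3 (5.75) was the highest of the matured samples. The log2 change was -4.66 ± 0.40 in CTRL (a 25.3-fold fall, limma adjusted p = 5.03e-07), -4.26 ± 0.40 in Ifnar1-KO (19.2-fold, adjusted p = 1.53e-06) and -4.57 ± 0.40 in GF (23.8-fold, adjusted p = 7e-07). It ranked 18 of 19938 genes by the size of its fall in CTRL, 9 in Ifnar1-KO and 8 in GF.

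Ms4a6b, known from T cells as well as myeloid cells, fell less and varied more. Its CCR7- values were 7.59, 7.69 and 7.42 in CTRL, 6.89, 5.99 and 7.37 in Ifnar1-KO, and 7.93, 7.37 and 7.74 in GF. Its CCR7+ values were 4.81, 4.51 and 4.57 in CTRL, 4.22, 3.84 and 4.38 in Ifnar1-KO, and 4.18, 6.18 and 4.18 in GF. The stages overlapped through a single pair of arrays, since GF CCR7+ replicate 2 (6.18) lay above Ifnar1-KO CCR7- replicate 2 (5.99). The log2 change was -2.94 ± 0.44 in CTRL (7.66-fold lower, limma adjusted p = 0.000118), -2.61 ± 0.44 in Ifnar1-KO (6.08-fold, adjusted p = 0.000411) and -2.83 ± 0.44 in GF (7.11-fold, adjusted p = 0.000186). Without GF CCR7+ replicate 2 the GF change was -3.50 (adjusted p = 1.71e-06), and without the 6 arrays that stood apart it was -3.75 (adjusted p = 1.89e-05).

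The CCR7+ arrays with the highest Ms4a6b and the highest Ms4a6c also had the highest Xcr1, Naaa and Itgae of that stage, but not all genes of the immature XCR1+ DC followed. On GF CCR7+ replicate 2, Xcr1 was 7.97, Naaa (a lysosomal amidase gene of XCR1+ DCs) was 8.0 and Itgae (the integrin chain CD103) was 7.93. On Ifnar1-KO CCR7+ replicate 3, where Ms4a6c was 5.75, these genes were 8.36, 8.55 and 8.07. On the other 7 CCR7+ arrays they were 4.89 to 7.37, 5.34 to 7.27 and 5.67 to 7.01. Ifnar1-KO CCR7+ replicate 2 had the lowest Xcr1 (4.89), Naaa (5.34), Ms4a6b (3.84) and Ms4a6c (3.63), but not the lowest Itgae (5.89). This array also had the highest mean of the thymocyte and T cell markers (7.59). Kit, which encodes the sorting marker CD117, was 6.0 on GF CCR7+ replicate 2 and 7.04 on Ifnar1-KO CCR7+ replicate 3, against 5.31 to 6.55 on the other 7. The mean of the identity list was 8.25 and 8.53 on these 2 arrays, and 8.22 on Ifnar1-KO CCR7+ replicate 1, where Ms4a6b (4.22) and Ms4a6c (4.14) were low. The array with high Ms4a6b did not have equally high Ms4a6c (4.99), nor did the array with high Ms4a6c have high Ms4a6b (4.38). Without Ifnar1-KO CCR7+ replicate 3 the Ifnar1-KO change of Ms4a6c was -4.88 (limma adjusted p = 2.33e-08). The part of these identity genes, of thymocyte transcripts or of cells left from the other stage in the members' values was not tested.

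**Figure D2:**
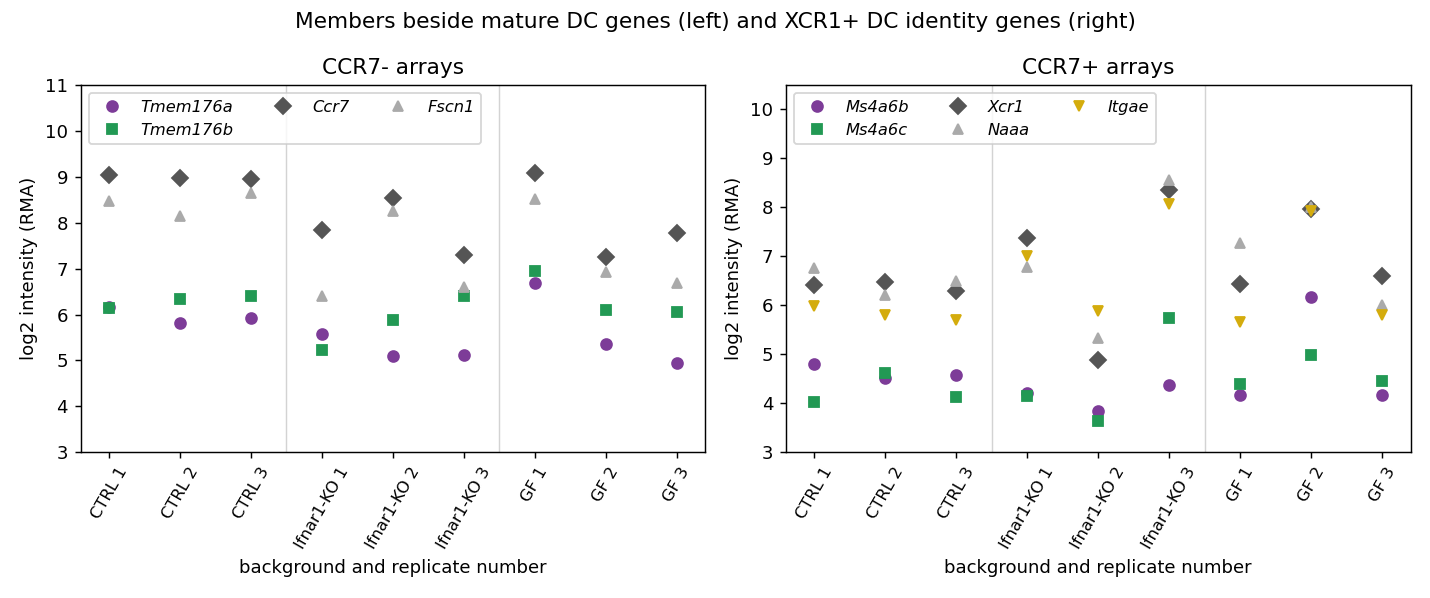
Log2 RMA intensity (y axis) on each of the 9 CCR7- arrays (left) and the 9 CCR7+ arrays (right), by background and replicate number (x axis). Left, Tmem176a and Tmem176b beside Ccr7 and Fscn1, all highest or near their highest on GF replicate 1; right, Ms4a6b and Ms4a6c beside Xcr1, Naaa and Itgae, with GF replicate 2 and Ifnar1-KO replicate 3 high in all of the identity genes.

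Ms4a4c, a member known in mouse immune cells to respond to interferon, fell to the low end of the array scale. Its CCR7- values were 6.31, 6.55 and 5.63 in CTRL, 5.60, 6.31 and 6.68 in Ifnar1-KO, and 6.39, 5.91 and 5.66 in GF. Its CCR7+ values were 3.75, 3.73 and 3.81 in CTRL, 4.02, 3.86 and 3.98 in Ifnar1-KO, and 3.74, 4.52 and 4.29 in GF. The stages were separated by 1.08, and the CCR7- cells of Ifnar1-KO mice spanned the values of CTRL. The log2 change was -2.40 ± 0.28 in CTRL (5.27-fold lower, limma adjusted p = 1.3e-05), -2.24 ± 0.28 in Ifnar1-KO (4.73-fold, adjusted p = 3.01e-05) and -1.80 ± 0.28 in GF (3.49-fold, adjusted p = 0.000212). The GF change was -2.65 (adjusted p = 0.00475) without the 6 arrays that stood apart. Of all genes, 8.28% had 9 CCR7+ arrays that all lay below the 9 CCR7- arrays, as Ms4a6c and Ms4a4c did.

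Ms4a6d, a macrophage member of the Ms4a6 group, had low signal and a small fall. It had a mean of 4.24 ± 0.24 (SD, n = 3) in CTRL CCR7- and 3.61 ± 0.07 in CTRL CCR7+ cells, 4.38 ± 0.25 and 3.70 ± 0.11 in Ifnar1-KO, and 4.19 ± 0.34 and 3.71 ± 0.14 in GF cells. The stages overlapped, with 3.80 as the lowest CCR7- and 3.87 as the highest CCR7+ value. The log2 change was -0.63 ± 0.16 in CTRL (limma adjusted p = 0.0105), -0.67 ± 0.16 in Ifnar1-KO (adjusted p = 0.0077) and -0.48 ± 0.16 in GF (95% interval -0.83 to -0.13, adjusted p = 0.0516). The CTRL call ended without CTRL CCR7- replicate 2 (-0.53, adjusted p = 0.0552), and the GF value passed with the replicate number as a block (adjusted p = 0.0451) or without GF CCR7- replicate 2 (-0.68, adjusted p = 0.00504).

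Ms4a1, Ms4a4b and Ms4a7 stayed in the lowest part of the array scale. On each array, 10% of genes lay below 3.36 to 3.49 and 25% below 3.76 to 3.90. Ms4a1 (CD20) ranged from 3.48 to 4.15 on the CCR7- arrays and from 3.37 to 3.91 on the CCR7+ arrays, with log2 changes of -0.17 ± 0.17, -0.13 ± 0.17 and -0.30 ± 0.17 in CTRL, Ifnar1-KO and GF. Of 11 measured B cell markers none rose in any background and Fcrla, an Fc receptor-like gene, fell in all 3, by 2.18 ± 0.14 in CTRL (limma adjusted p = 4.37e-08); Bank1 also fell in Ifnar1-KO (-0.32 ± 0.10, adjusted p = 0.0392). The defining B cell gene Cd79a was 3.31 to 3.86 on all arrays, and the mean of the list was 4.19 to 4.44 on the CCR7- and 3.99 to 4.16 on the CCR7+ arrays.

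Ms4a4b, a T cell member that associates with the receptor GITR in mouse, was 3.66 to 4.06 on the CCR7- and 3.45 to 3.90 on the CCR7+ arrays. Its log2 changes were 0.03 ± 0.11, -0.09 ± 0.11 and -0.16 ± 0.11 in CTRL, Ifnar1-KO and GF, and each 95% interval lay within -0.39 to 0.26. Thymocyte and T cell markers rose for 4, 3 and 4 of 17 measured genes in these backgrounds and fell for none. An unadjusted limma p under 0.05 was found for 9, 12 and 6 of the 17. Among all 19938 genes 7501, 5724 and 6145 had such a p. The median log2 change of the 17 was 0.96, 1.38 and 1.14. Cd8b1, the CD8 beta chain of thymocytes and T cells, rose in CTRL by 1.69 ± 0.40 (limma adjusted p = 0.00568). On Ifnar1-KO CCR7+ replicate 2, with a Cd3d value of 10.25 and a Rag1 value of 10.31, Ms4a4b was 3.65.

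Ms4a7, a member of tissue macrophages and microglia, was 3.29 to 4.17 on the CCR7- and 3.38 to 4.04 on the CCR7+ arrays. Its log2 changes were 0.20 ± 0.15, 0.06 ± 0.15 and 0.00 ± 0.15 in CTRL, Ifnar1-KO and GF. Its highest values were 4.17 on GF CCR7- replicate 3 and 4.04 on GF CCR7+ replicate 1. Of 14 measured macrophage and monocyte markers, 2, 3 and 3 rose and 4, 3 and 4 fell in CTRL, Ifnar1-KO and GF. The monocyte chemokine receptor gene Ccr2 fell by 3.06 ± 0.18 in CTRL (limma adjusted p = 1.51e-08), the lysozyme gene Lyz2 fell by 2.49 ± 0.52 (adjusted p = 0.002), and Spic, a transcription factor gene of red pulp macrophages, rose by 2.84 ± 0.41 (adjusted p = 9.36e-05). The defining macrophage genes Adgre1 (F4/80) and Mertk were at 3.40 to 3.75 and 3.40 to 3.67 on all arrays, and Fcgr1 (CD64) at 4.15 to 4.48. The complement genes C1qa, C1qb and C1qc, which macrophages express, were at 4.14 to 4.85, 3.87 to 4.92 and 4.58 to 5.66. C1qa was highest (4.85) on GF CCR7- replicate 3 and C1qb (4.92) on GF CCR7+ replicate 1, the arrays with the highest Ms4a7 of each stage. C1qc was highest (5.66) on Ifnar1-KO CCR7+ replicate 2, where Ms4a7 was 3.56, and was 5.63 on GF CCR7+ replicate 1. C1qb rose during maturation in Ifnar1-KO (0.33 ± 0.11, limma adjusted p = 0.0416) and in GF (0.46 ± 0.11, adjusted p = 0.00502), with 0.30 ± 0.11 in CTRL that did not pass. The part of these genes in the Ms4a7 values was not tested. The list mean was 5.08 to 5.24 on the CCR7- and 4.91 to 5.10 on the CCR7+ arrays.

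The other 12 measured Ms4a genes passed in none of the 9 comparisons. They are what was left of the family once the members had been picked with such results known. These counts therefore describe the 12 and give no independent support. RefSeq lists 21 Ms4a genes, 19 of them were measured, and 7 of those are members. The smallest limma adjusted p of the 12 during maturation was 0.278 in CTRL, 0.345 in Ifnar1-KO and 0.513 in GF, and 0 of 12 had an unadjusted p under 0.05 in any of the 9 comparisons. Of all 19938 genes, 7501 had such a p during maturation in CTRL, 5724 in Ifnar1-KO and 6145 in GF. Their median log2 change was 0.03 in CTRL, where the median of all genes was 0.07. Ms4a10, Ms4a15 and Ms4a8a had the highest signals of the 12, at 4.79 to 5.33, 4.73 to 5.24 and 4.44 to 4.87, and Ms4a2, Ms4a3, Ms4a4a, Ms4a4d, Ms4a5, Ms4a12, Ms4a13, Ms4a19 and Ms4a20 were at 2.87 to 4.03. The signals of the 12 come from different probes and do not rank their transcripts. On each array 25% of genes lay below 3.76 to 3.90, so a fall could hardly be seen in the genes at 2.87 to 4.03.

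The genes that fell lay near each other in the cluster, with genes that did not pass the test between them. In the order of the RefSeq annotation (GRCm38.p6, used for order only) Ms4a4a is followed by Ms4a4c, Ms4a4b, Ms4a6c, the unmeasured Gm8369, Ms4a6b, Ms4a4d and Ms4a6d, then by Ms4a2 and Ms4a3. In CTRL cells the log2 changes of the measured genes in this order were 0.01, -2.40, 0.03, -4.66, -2.94, -0.01, -0.63, 0.10 and 0.12. Those that did not pass were already low in CTRL CCR7- cells: Ms4a4a 3.44, Ms4a4b 3.71, Ms4a4d 3.27, Ms4a2 3.23 and Ms4a3 3.63. On each array 25% of genes lay below 3.76 to 3.90, so a fall of these genes could hardly have been seen. Outside the cluster, Ccdc86, a nucleolar protein gene, fell by 1.30 ± 0.23 (limma adjusted p = 0.000476) and Ptgdr2, a prostaglandin D2 receptor gene, fell by 0.36 ± 0.11 (adjusted p = 0.0251), while Oosp1, an oocyte secreted protein gene on the far side, rose by 1.88 ± 0.36 (adjusted p = 0.00115). Zp1, Oosp2 and Oosp3 did not pass, at -0.06, 0.28 and 0.05.

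Among the measured neighbours of the Tmem176 pair, changes were small beside those of the pair. The lymphocyte GTPase genes Gimap1 and Gimap5 changed by 0.52 ± 0.27 (limma adjusted p = 0.166) and -0.02 ± 0.11 (adjusted p = 0.925) in CTRL, and Gimap3 rose by 0.38 ± 0.13 (adjusted p = 0.0492). Gimap3 also rose in GF by 0.50 ± 0.13 (adjusted p = 0.0131), with 0.23 ± 0.13 in Ifnar1-KO that did not pass (adjusted p = 0.305). In Ifnar1-KO and GF, Gimap1 (0.73 and 0.45) and Gimap5 (0.05 and 0.03) did not pass. On the other side Gm7932 rose by 0.40 ± 0.10 (adjusted p = 0.0104) in CTRL, with 0.14 and 0.06 in Ifnar1-KO and GF that did not pass. Aoc1, an amine oxidase gene, and Doxl1 had changes of 0.13 and 0.16 (adjusted p = 0.353 and 0.217).

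**Figure D3:**
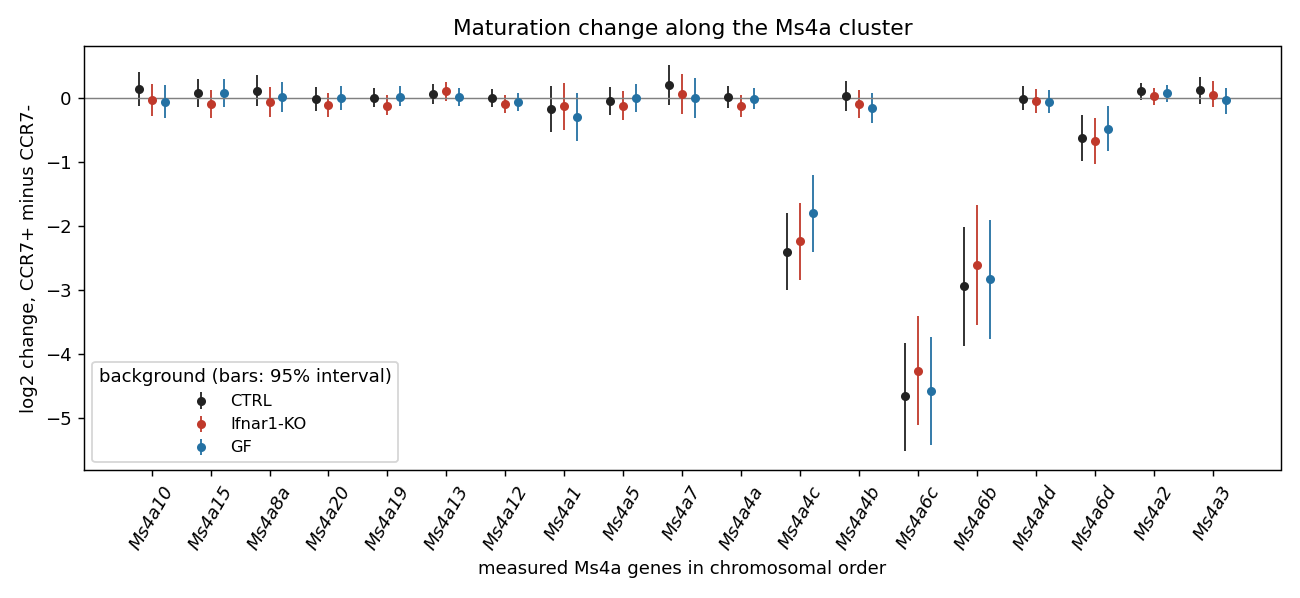
Log2 change from CCR7- to CCR7+ cells (y axis; points with 95% intervals) of the 19 measured Ms4a genes in chromosomal order (x axis), in CTRL, Ifnar1-KO and GF. Ms4a4c, Ms4a6c and Ms4a6b stand between -1.80 and -4.66, Ms4a6d between -0.48 and -0.67, and the rest between -0.30 and 0.20. Ms4a4b, which had low signal in both stages, is near 0 between Ms4a4c and Ms4a6c.

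Neither background changed how the members moved by an amount that passed the test. For the difference of the maturation change from CTRL, limma called 0 of 9 members in Ifnar1-KO and 0 of 9 in GF, where it called 0% of all genes in both, and 0 members had an unadjusted p under 0.05. Of all 19938 genes, 901 in Ifnar1-KO and 660 in GF had such a p. The difference for Ifnar1-KO minus CTRL was 0.72 ± 0.44 for Tmem176a (95% interval -0.22 to 1.66) and 0.56 ± 0.36 for Tmem176b (-0.21 to 1.33), with adjusted p = 0.958 as the smallest of the 9. The difference for GF minus CTRL was 0.59 ± 0.40 for Ms4a4c (-0.26 to 1.45), with 0.999 as the smallest adjusted p. The widest interval was that of Ms4a6b, -0.99 to 1.65 in Ifnar1-KO and -1.21 to 1.43 in GF, so a difference of about 1 on the log2 scale lies within it. These comparisons share the CTRL arrays.

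Within a stage the members also did not pass between backgrounds. For Ifnar1-KO minus CTRL, limma called 0 of 9 members in CCR7- cells (0% of all genes) and 0 of 9 in CCR7+ cells (0.015% of all genes). For GF minus CTRL it called 0 of 9 in CCR7- cells (0.015%) and 0 of 9 in CCR7+ cells (0.0301%). At an unadjusted p under 0.05 there was 1 member each in the CCR7- cells of Ifnar1-KO and GF, and 0 in the CCR7+ cells of either. Of all 19938 genes, 1401 (Ifnar1-KO) and 1260 (GF) had such a p in CCR7- cells, and 582 and 1168 in CCR7+ cells. With 9 members, a count of 1 is therefore no result about them. The members with such a p were Tmem176a, lower in Ifnar1-KO by a log2 difference of -0.71 ± 0.31 (limma adjusted p = 0.681), and Ms4a7. For Ms4a7 the GF minus CTRL difference was 0.42 ± 0.15 (limma adjusted p = 0.766). Genes of mature DCs were lower beside Tmem176a in the same Ifnar1-KO comparison, by -1.09 ± 0.35 for Ccr7 and -1.33 ± 0.45 for Fscn1 (limma adjusted p = 0.681 for both); of the 11 on the list 0 were called, 4 had an unadjusted p under 0.05, and the median was -0.55. In GF minus CTRL CCR7- cells, 5 of the 11 had such a p and the median was -0.71. The complement genes can be set beside Ms4a7. In GF minus CTRL CCR7- cells C1qa, C1qb and C1qc differed by 0.30 ± 0.14 (limma adjusted p = 0.766), 0.16 ± 0.11 and -0.05 ± 0.24. In CCR7+ cells they differed by 0.23 ± 0.14, 0.33 ± 0.11 (limma adjusted p = 0.675) and 0.31 ± 0.24. Of 14 macrophage and monocyte markers, 1 had an unadjusted p under 0.05 in each of these stages. In Ifnar1-KO minus CTRL CCR7- cells C1qa differed by 0.29 ± 0.14 and Ms4a7 by 0.06 ± 0.15. The part of these genes in the members' differences was not tested. In CCR7+ cells Tmem176a differed from CTRL by 0.01 (95% interval -0.65 to 0.68) in Ifnar1-KO and 0.05 (-0.61 to 0.72) in GF. The group means of Tmem176a were 10.64 in GF, 10.60 in Ifnar1-KO and 10.59 in CTRL among CCR7+ cells, and 5.97 in CTRL, 5.67 in GF and 5.26 in Ifnar1-KO among CCR7- cells. Only the step between the stages exceeded the spread by the test, and the groups within a stage have no settled order: GF minus CTRL in CCR7- cells was -0.30 ± 0.31, and -0.81 without GF replicate 1, 0.06 without GF replicate 3 and 0.73 without the 6 arrays that stood apart.

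The interferon-responsive member and the interferon genes themselves can be set beside these values. For Ms4a4c the Ifnar1-KO minus CTRL difference was 0.03 ± 0.28 in CCR7- cells (95% interval -0.57 to 0.64) and 0.19 ± 0.28 in CCR7+ cells (-0.41 to 0.79). The CCR7+ value cannot show a loss, because Ms4a4c was already at 3.73 to 3.81 in CTRL CCR7+ cells. On each array 25% of genes lay below 3.76 to 3.90. Of 12 measured type I interferon stimulated genes, limma called 0 between Ifnar1-KO and CTRL in either stage, with an unadjusted p under 0.05 for 1 in each. These counts rest on the Ifnar1-KO label, and both replicate 1 arrays so labelled had Ifnar1 signals of CTRL level (8.07 and 7.61). Without these 2 arrays the Ms4a4c difference was 0.33 ± 0.28 in CCR7- cells (limma adjusted p = 0.67) and 0.15 ± 0.28 in CCR7+ cells (adjusted p = 0.991). During maturation 5 of the 12 interferon stimulated genes rose and 2 fell in CTRL, 5 and 0 in Ifnar1-KO, and 5 and 2 in GF. Of all genes, 12.6% rose and 13.6% fell in CTRL, 9.42% and 10.8% in Ifnar1-KO, and 9.53% and 11.8% in GF. Ifit1, an interferon-induced antiviral gene, rose in CTRL by 1.32 ± 0.27 (limma adjusted p = 0.00167). Irf7, a transcription factor gene of the interferon response, fell there by 1.38 ± 0.25 (adjusted p = 0.000725).

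**Figure D4:**
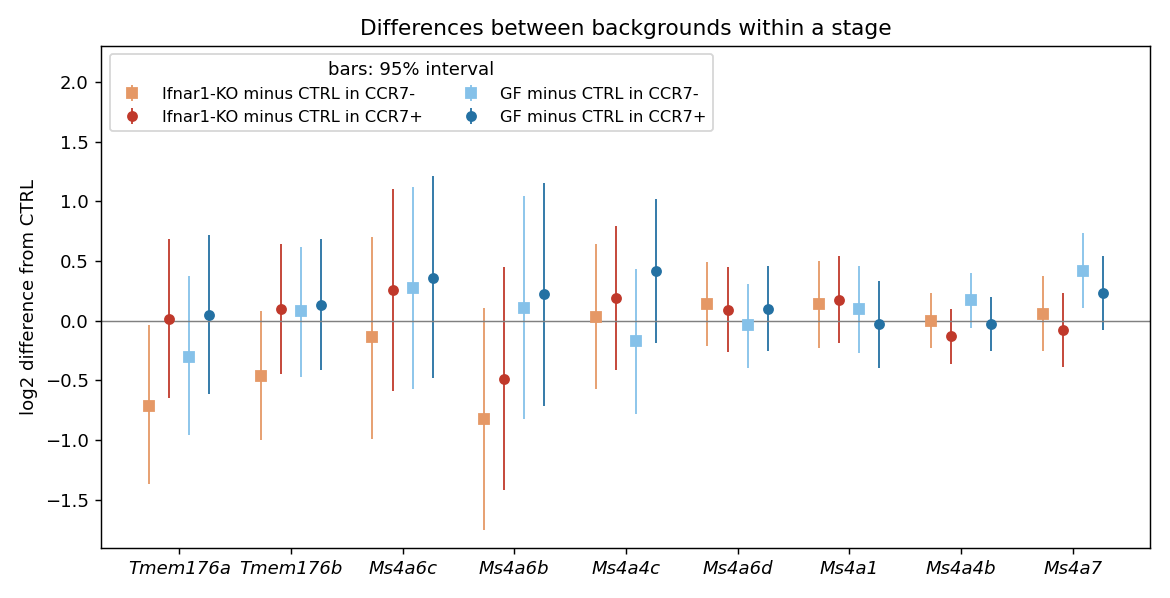
Log2 difference from CTRL (y axis; points with 95% intervals) of each member (x axis) for Ifnar1-KO and GF in CCR7- and CCR7+ cells. All but 2 intervals reach 0; the exceptions are Tmem176a in Ifnar1-KO CCR7- cells (-1.37 to -0.04) and Ms4a7 in GF CCR7- cells (0.11 to 0.73), and neither passed after adjustment over all genes.

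Genes reported as partners of these proteins, or as parts of the pathways they act in, moved both ways; 12 of 13 listed were measured. In CTRL 3 rose and 3 fell, in Ifnar1-KO 5 and 3, and in GF 4 and 4, with a median log2 change of 0.08 in CTRL. The shares of all genes that rose and fell were 12.6% and 13.6% in CTRL, 9.42% and 10.8% in Ifnar1-KO, and 9.53% and 11.8% in GF. Of the inflammasome genes, which TMEM176B bears on, Il1b fell by 3.64 ± 0.44 (limma adjusted p = 1.63e-05) and the sensor gene Nlrp3 fell by 1.83 ± 0.20 (adjusted p = 5.54e-06) in CTRL. The adaptor gene Pycard and the protease gene Casp1 did not pass in CTRL, at -0.46 ± 0.21 (adjusted p = 0.123) and 0.69 ± 0.30 (adjusted p = 0.111). Il1b also fell in Ifnar1-KO (-2.70 ± 0.44, adjusted p = 0.00032) and in GF (-3.28 ± 0.44, adjusted p = 5.09e-05).

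Among the surface partners, Cd40, the costimulatory receptor reported to associate with CD20, rose by 1.81 ± 0.16 in CTRL (limma adjusted p = 5.55e-07). Cd9, a tetraspanin gene, fell by 1.69 ± 0.18 (adjusted p = 3.88e-06). Tnfrsf18, which encodes GITR, the partner of MS4A4B, rose by 1.37 ± 0.19 (adjusted p = 7.77e-05), while Ms4a4b did not pass. Clec7a, the beta-glucan receptor dectin-1 that works with human MS4A4A in macrophages, had a change of 0.50 ± 0.33 in CTRL (adjusted p = 0.295), and rose in Ifnar1-KO by 1.19 ± 0.33 (adjusted p = 0.0182) and in GF by 1.22 ± 0.33 (adjusted p = 0.0152). The difference between Ifnar1-KO and CTRL in the Clec7a change, 0.69 ± 0.47, did not pass (adjusted p = 0.958).

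The genes with the most similar pattern over the 18 arrays were taken by Pearson correlation, as a description that the stages dominate. For Tmem176a they were Tnfrsf4 (OX40, a TNF receptor family member, 0.995), Scin (the actin-severing scinderin, 0.994) and Scpep1 (a serine carboxypeptidase, 0.993). For Tmem176b they were Glipr2 (0.993), Serpinb6b (0.992) and Prnp (the prion protein, 0.992). For Ms4a6c they were P2ry14 (a receptor for UDP-sugars, 0.993), Rab7b (a small GTPase of the endosomal system, 0.993) and Fbl (the nucleolar fibrillarin, 0.992). For Ms4a4c they were Rpa1 (0.987), Prkd3 (0.971) and Dtl (0.97), for Ms4a6b they were Idh3a (0.958), Znrf2 (0.956) and Lpcat2 (0.955), and for Ms4a6d they were Ttc21b (0.938), Noc3l (0.92) and Cltrn (0.916). The members with low signal had weaker likeness: 0.822 for Ms4a1 with Adhfe1, 0.811 with Hhip and 0.802 with Rps6; 0.762 for Ms4a4b with Ugt2b37, 0.752 with Zswim1 and 0.744 with Dbndd1; 0.8 for Ms4a7 with Zfp580, 0.794 with Klri2 and 0.791 with Cd200r4.

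Members that looked alike over all arrays were much less alike once the group means were taken away. Tmem176a and Tmem176b correlated at 0.99 over the 18 arrays and at 0.37 after subtracting each group's mean, and Ms4a6b and Ms4a6c at 0.94 and 0.49. Tmem176a and Ms4a6c ran opposite at -0.97 and were at -0.01 after that subtraction. Some pairs changed sign: Tmem176b with Ms4a4c went from -0.93 to 0.64, the largest value left, and Ms4a1 with Ms4a6c from 0.35 to -0.61. The points share the 6 groups and the array normalisation, and these values are descriptions over 18 arrays.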

How the data were processed

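Per the submitters' processing notes, the authors made the deposited log2 intensities with RMA in the oligo package; the notes give no version, nor whether the arrays were normalised as a single set. Per the labels, between 0.7 and 7.3 ng of total RNA was amplified for each array with the NuGEN Ovation Pico kit. Of 35556 probesets, 21789 had exactly 1 symbol; the probeset with the highest mean was kept for each of 19938 genes, and each member had 1 probeset. Values were not normalised again or filtered. With 3 arrays per group the median 95% half-width of a CTRL maturation change was 0.267.

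All genes entered a limma 3.58.1 model (R 4.3.3) of the 6 group means, which left 12 residual degrees of freedom, with Benjamini-Hochberg adjustment within each of 9 comparisons; genes with an adjusted p under 0.05 were called. The functions were tested on simulated data. The members and lists were chosen with earlier results of these data known. All members were named; other lists were given as counts, with called genes of largest change, defining markers and, chosen after their values were seen, single genes beside them. Marker values per array (Xcr1, Naaa, Itgae, Kit, Ccr7, Fscn1, Cd3d, Rag1, C1qa, C1qb, C1qc) were also picked after their values were seen. Plasmacytoid DC markers (7 measured) rose for 1 and fell for 1 in CTRL, and CD172a+ DC markers (8 measured) likewise. Every list count during maturation stands beside the same shares of all genes. These were 12.6% risen and 13.6% fallen in CTRL, 9.42% and 10.8% in Ifnar1-KO, and 9.53% and 11.8% in GF.

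Replicate numbers were checked as pairs across stages: deviations from group means correlated at 0.188, 0.147 and 0.1001 in CTRL, at 0.284, 0.321 and 0.236 in Ifnar1-KO, and at 0.267, 0.004 and 0.030 in GF, so every Ifnar1-KO pair was over 0.1, the CTRL pairs were too but by a bare margin in the third, and 2 GF pairs were not. Arrays of unlike number were also over 0.1 for Ifnar1-KO CCR7- replicate 1 with CCR7+ replicate 3 (0.143) and GF CCR7- replicate 2 with CCR7+ replicate 3 (0.198). A value over 0.1 therefore does not by itself show a pair. Alternatives were an intensity trend, array weights, a filter at the median level, median centring, all probesets or their mean, only the groups compared, a replicate block, an unexplained r that ends some array codes as a covariate, and leaving out each array. Upstream bases were aligned with Biopython 1.88, and figures drawn with matplotlib 3.10.9.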

Additional observations from a re-analysis of the deposited data

How the results depend on the processing

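The 17 called member results gave 508 values under 30 alternatives, of which 507 kept their direction and their call, 1 lost the call and 0 reversed. The exception was Ms4a6d in CTRL without CTRL CCR7- replicate 2. Many of the alternatives could change little. Each member had 1 probeset, so using all probesets or their mean left its values as they were. Leaving out an array of a group not compared left the change itself the same and could alter only its error and adjusted p. The 507 values are therefore not independent checks. The 64 results that did not pass gave 1886 values, of which 8 passed, all of them Ms4a6d in GF (adjusted p 0.00504 to 0.0489): with an intensity trend, with the replicate block (-0.48, adjusted p = 0.0451), without each of CTRL CCR7- replicate 3, Ifnar1-KO CCR7- replicates 2 and 3, GF CCR7- replicate 2 and GF CCR7+ replicate 3, and without both Ifnar1-KO replicate 2 arrays. With the replicate block the members called were 6, 6 and 6 in CTRL, Ifnar1-KO and GF, and it changed no other member call. Filtering at the median level left 5 members in the fit, all called in each background. This filter also raised the share called among all genes. It called 4476, 4011 and 4065 of 9969 genes in CTRL, Ifnar1-KO and GF. Without the filter 5218, 4036 and 4256 of 19938 genes were called. The 5 of 5 is therefore no stronger result than the main counts. Removal of the arrays that stood apart, and of both replicate 1 arrays labelled Ifnar1-KO, was chosen after seeing the data. Over all genes, counts between backgrounds were few and moved more: for GF minus CTRL in CCR7- cells from 3 to 41 without GF CCR7- replicate 1 and to 1 without the 6 arrays that stood apart, in CCR7+ cells from 6 to 39 without those 6 arrays and to 1 with only the groups compared, for Ifnar1-KO minus CTRL in CCR7- cells from 0 to 5 with array weights, and in CCR7+ cells from 3 to 5 without both Ifnar1-KO replicate 1 arrays, to 12 without those 6 arrays, to 1 with the replicate block and to 0 with only the groups compared. The differences of maturation changes went from 0 to 1 (Ifnar1-KO) and to 5 (GF) without those 6 arrays. No member was called in any of these 6 comparisons under any alternative. The causes were not tested. An array has no read depth. Low signals limit what can be seen for Ms4a1, Ms4a4b, Ms4a6d and Ms4a7, and for Ms4a4c in CCR7+ cells.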
